A study of Mus musculus with 4 samples.

Results

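The longest CpG islands on the array were described across 4 pools of neonatal mouse brain DNA. Autosomal probes were joined by their mm9 positions wherever the gap to the next probe was at most 1000 bp, and regions with 15 or more probes were kept as long regions. The rule used position only and no measured value. It gave 432 long regions with 8030 probes, out of 14178 autosomal regions with 85850 probes. A long region held 15 to 40 probes (median 17) and spanned 1520 to 6400 bp (median 2412 bp), with a median of 134 bp per probe. Chromosome 11 carried the most long regions (42), and chromosome 16 the fewest (13).

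The brains came from C57BL/6 offspring, male and female, 1 day after birth, whose dams (C57BL/6J) received 25 uL of vehicle (Sham) or of a titanium dioxide nanoparticle suspension (TiO2-H, 100 ug/mouse) into the trachea. Gestational day 14 stands in the sample names and day 10.5 in the treatment protocol. According to the methods of the study, the Sham vehicle was the suspension freed of its particles. Each pool joined 2 offspring from each of 5 Sham dams or 6 TiO2-H dams and was hybridised once, so each of the 4 groups is 1 array and no group has a replicate. Whole brain mixes neurons, glia and vessel cells, and a change in their shares and a change of methylation within a cell type cannot be told apart.

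CpG islands are stretches of the genome in which the dinucleotide CpG is dense. Those at promoters are mostly free of methylation, and long islands often cover genes of developmental transcription factors. Islands inside genes, away from the start, are more often methylated, and at imprinted genes 1 parental copy is methylated. Methylated DNA immunoprecipitation (MeDIP) pulls down fragments with an antibody against 5-methylcytosine. Here Cy5 marked the pulled-down DNA and Cy3 the input, and the level of a probe is log2 of Cy5 over Cy3, with the autosomal median of its array set to 0. The level of a region is the median over its probes. MeDIP signal also rises with the number of CpGs in a fragment, so a level is not a percentage of methylated molecules.

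Some facts of the 4 arrays touch all results. In long regions, 48.8% (Sham male) and 57.4% (Sham female) of probes had Cy5 well above background, against 22.7% and 30.4% on the TiO2-H arrays labelled male and female. The median input signal of X-linked probes relative to the autosomal median was -0.75 (log2, Sham male) and -0.74 (TiO2-H labelled female). It was 0.03 on the other two, so the input of both TiO2-H arrays went against their sex labels, and comparisons are given with these labels crossed as well. Both male-labelled arrays shared 1 slide and both female-labelled arrays the other, with Sham and TiO2-H in different positions, so slide and labelled sex, and position and exposure, cannot be told apart.

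Gene symbols could be given to 264 of the 432 long regions, 12 of them with more than 1 symbol, through the study's printed probe lists. Those lists are ordered by the male comparison and were read only in part, so whether a region has a symbol depends partly on that comparison. A promoter or divergent promoter label was found for 95 of the named regions, and 160 had only labels inside a gene. Such labels come from at most 482 of the 8030 long-region probes, so a probe that was not read could carry another label. To show what these islands look like, the promoters of the lowest and the highest promoter-labelled long regions are printed from RefSeq (build GRCm38.p6, 300 bases each, 5′ to 3′ on the strand of the gene, every CpG in capitals). The build differs from that of the array, so it was not checked whether a printed promoter lies within the region. Chosen from 64 promoter-labelled regions with 1 symbol and a matched promoter, the lowest pair comes first and the highest pair second:
Tsen34, chr7:3694258-3694557, plus strand: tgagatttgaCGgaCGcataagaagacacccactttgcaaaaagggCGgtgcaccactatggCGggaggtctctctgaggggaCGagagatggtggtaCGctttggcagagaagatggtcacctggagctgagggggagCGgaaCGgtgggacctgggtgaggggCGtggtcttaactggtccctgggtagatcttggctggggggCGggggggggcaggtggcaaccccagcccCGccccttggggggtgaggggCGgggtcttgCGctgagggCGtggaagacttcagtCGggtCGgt
Ppp4r3b, chr11:29172726-29173025, plus strand: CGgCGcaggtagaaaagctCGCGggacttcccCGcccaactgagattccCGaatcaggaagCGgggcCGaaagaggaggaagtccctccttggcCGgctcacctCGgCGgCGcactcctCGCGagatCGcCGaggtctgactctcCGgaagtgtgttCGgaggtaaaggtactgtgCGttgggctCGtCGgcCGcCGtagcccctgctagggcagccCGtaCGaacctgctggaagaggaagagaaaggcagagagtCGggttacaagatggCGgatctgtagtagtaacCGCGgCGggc
Hmga1, chr17:27556324-27556623, plus strand: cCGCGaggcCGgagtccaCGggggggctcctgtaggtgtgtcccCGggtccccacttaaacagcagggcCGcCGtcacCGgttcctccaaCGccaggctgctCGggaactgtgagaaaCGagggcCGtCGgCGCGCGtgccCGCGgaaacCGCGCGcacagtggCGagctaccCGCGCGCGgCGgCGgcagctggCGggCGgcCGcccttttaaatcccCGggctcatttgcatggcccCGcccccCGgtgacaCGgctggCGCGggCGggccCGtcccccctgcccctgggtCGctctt
Irf2bp2, chr8:126593937-126594236, minus strand: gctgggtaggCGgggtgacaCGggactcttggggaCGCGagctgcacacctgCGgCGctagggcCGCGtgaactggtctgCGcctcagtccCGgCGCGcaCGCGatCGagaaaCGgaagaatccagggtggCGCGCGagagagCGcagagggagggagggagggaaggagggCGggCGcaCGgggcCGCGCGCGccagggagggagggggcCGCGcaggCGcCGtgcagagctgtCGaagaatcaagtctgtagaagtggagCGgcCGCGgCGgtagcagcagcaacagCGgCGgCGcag

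The low pair of promoters held 16 CpGs (Tsen34, a subunit of the tRNA splicing endonuclease) and 30 CpGs (Ppp4r3b, a regulatory subunit of protein phosphatase 4). The high pair held 40 CpGs (Hmga1, a chromatin protein that binds AT-rich DNA) and 39 CpGs (Irf2bp2, a transcriptional corepressor). Over the 72 promoter-labelled genes with a matched promoter, the median was 29.5 CpGs per 300 bases, and 86.1% held 20 or more. Without regard to label, the share was 74.6% for 197 matched genes of long regions and 67.8% for 2692 genes of regions with 3 to 14 probes. It was 28.8% for all 27025 genes with a promoter. Where a gene had several promoters, the one with the most CpGs was counted.

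The Tsen34 region (chr7:3644138-3646552, 20 probes) had levels of -1.64 (Sham male), -0.49 (Sham female), -0.73 (TiO2-H labelled male) and -1.27 (TiO2-H labelled female). It was the lowest of all 432 long regions by the mean of the 4 arrays. The Ppp4r3b region (chr11:29072076-29073638, 16 probes) had levels of -1.07, -0.50, -0.70 and -1.04 in the same order of arrays, which is kept below. The Hmga1 region (chr17:27692021-27694996, 21 probes) had levels of 0.89, 0.45, 0.46 and 0.86. The Irf2bp2 region (chr8:129116306-129118929, 19 probes) had levels of 1.13, 0.50, 0.45 and 1.18. The low pair lay below 0 and the high pair above 0 on every array. Only 3 of the 20 Tsen34 probes had Cy5 well above background on each TiO2-H array, against 8 and 11 of the 19 Irf2bp2 probes.

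Most long regions lay close to the autosomal median, and a short upper tail stood far above it. By the mean of the 4 arrays, 336 of 432 long regions lay between -0.5 and 0.5 and 12 lay above 1. There were 75 long regions above 0 on all 4 arrays and 143 below 0 on all 4. The upper tail reached above 1 on every array for 8 regions, whereas no region lay below -1 on every array. Of the 12 regions with a mean above 1, 10 had only labels inside a gene, 2 had no symbol and 0 carried a promoter label on the probes read.

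**Figure D1:**
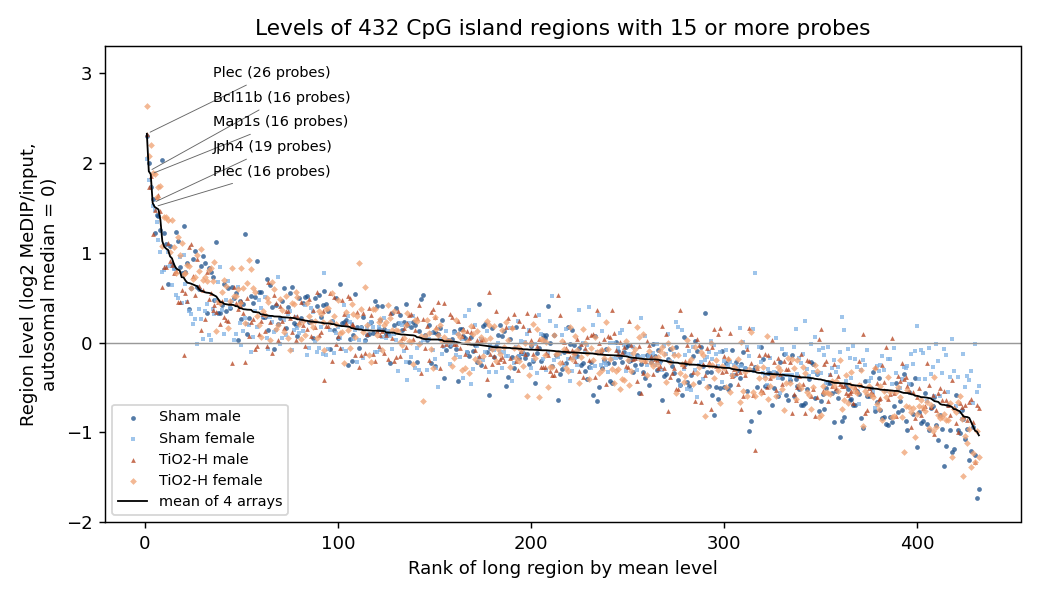
Levels of the 432 long regions (vertical axis, log2 of MeDIP over input with the autosomal median at 0) in order of their mean over the 4 arrays (horizontal axis, rank). Points are single arrays and the black line is the mean; the Plec region with 26 probes leads at 2.32, and the line ends at -1.03 for Tsen34.

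The highest long region lay within Plec, which encodes plectin, a linker of the cytoskeleton. This region (chr15:76008957-76012444, 26 probes) had levels of 2.30 (Sham male), 2.04 (Sham female), 2.32 (TiO2-H labelled male) and 2.63 (TiO2-H labelled female). Cy5 was well above background at 26, 26, 23 and 26 of its 26 probes, so the level did not rest on dim spots. A second Plec region (chr15:76002674-76005608, 16 probes) had the fifth highest mean, with levels of 1.21, 1.47, 1.48 and 1.88. Both islands of this gene thus stood in the upper tail on every array.

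The next regions lay within Bcl11b, Map1s and Jph4. Bcl11b encodes a zinc finger transcription factor of cortical projection neurons, and its region (chr12:109153539-109155612, 16 probes) had levels of 2.00, 1.81, 1.73 and 2.08. Map1s encodes a microtubule-associated protein, and its region (chr8:73436840-73438754, 16 probes) had levels of 1.73, 1.72, 1.85 and 2.19. Jph4 encodes a junctophilin that ties the endoplasmic reticulum to the cell membrane in neurons, and its region (chr14:55732139-55734332, 19 probes) had levels of 1.60, 1.52, 1.20 and 1.89. In these 3 regions Cy5 was well above background at 14 or more probes on every array. None of the 5 highest regions carried a promoter label. All 5 were also the highest after quantile normalization and with a common spread, and all were among the 10 highest after loess. After normexp 0 of them were among the 10 highest, and the levels of all long regions on the Sham female array then had an interquartile range of only 0.006.

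Medians differed little between long regions labelled only inside genes and promoter-labelled ones. Inside genes the median level was -0.11, -0.06, -0.08 and -0.05 on the 4 arrays, against -0.18, -0.08, -0.13 and -0.14 for the promoter-labelled ones. The upper ends differed: 11, 9, 10 and 11 of the 160 regions inside genes lay above 1, against 2, 0, 0 and 1 of the 95 promoter-labelled regions. These are descriptions of single arrays, without a test, and the labels come from part of the probes.

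At the low end, Tsen34 was followed by a region within Islr2 (chr9:58045808-58047707, 16 probes), a membrane protein of axons, with levels of -1.73, -0.55, -0.70 and -0.99. The other three of the lowest 5 had no symbol and lay at chr15:66800164-66801749, chr6:39821483-39823576 and chr8:89992599-89995006. On the TiO2-H array labelled male, Cy5 was well above background at 0 of 16 Islr2 probes and at 4, 2 and 1 probes of the 3 others. How far such levels lie below the median is therefore poorly fixed on the TiO2-H arrays.

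The regions with the most probes did not stand out in level. The longest run of probes lay within Bahcc1, which encodes a chromatin reader (chr11:120094109-120099509, 40 probes over 5401 bp), with levels of -0.32, -0.09, -0.06 and 0.00. An unnamed region on chromosome 5 (chr5:33772994-33778243) held 39 probes and had levels of 0.12, 0.11, -0.01 and -0.18. Hic1, a tumour suppressor and repressor (36 probes), had levels of -0.06, -0.03, -0.13 and 0.05. The divergent promoter region of Crnde and Irx5, a homeobox gene (36 probes), had levels of -0.62, -0.27, -0.37 and -0.54, below 0 on every array. Mex3b, an RNA-binding protein (31 probes), was also below 0 on every array, with -0.84, -0.31, -0.47 and -0.31. Among the 10 regions with the most probes, the means over 4 arrays ranged from -0.48 to 0.21, with the highest at Sall1, a zinc finger developmental regulator.

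The 4 arrays ordered the long regions alike to different degrees. Spearman's rho of the 432 levels was 0.80 between the Sham male array and the TiO2-H array labelled female, and Pearson's r was 0.84. It was 0.65 between both male-labelled arrays, 0.53 between both female-labelled arrays and 0.59 between the Sham arrays. The lowest value was 0.46, between the Sham female array and the TiO2-H array labelled male. All pairs share the probes and their base composition, so these values describe the arrays and carry no test.

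Long regions were then compared with the 12659 shorter regions of 3 to 14 probes. Their median level was -0.14, -0.08, -0.09 and -0.12 on the 4 arrays, against -0.02, -0.02, -0.03 and -0.02. The difference was -0.12, -0.06, -0.06 and -0.10, with a mean of -0.08 ± 0.03 (SD, n = 4 arrays). It had the same sign on 4 of 4 arrays, and the exact sign-flip permutation test over arrays (two-sided) gave p = 0.125, the smallest value that 4 arrays allow. Against the 1354 regions of 10 to 14 probes the mean difference was 0.0027 (exact permutation p = 1), so the contrast lay with regions of few probes. After normexp background correction it was 0.0013.

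The medians fell from 0.08, 0.05, 0.06 and 0.07 in regions of 3 or 4 probes to -0.12, -0.07, -0.13 and -0.11 in those of 10 to 14. From there to the long regions they fell further on 3 arrays and rose on the TiO2-H array labelled male. Just outside the limit, regions of 14 probes had medians of -0.17, -0.09, -0.13 and -0.16 (109 regions). Just inside it, regions of 15 probes had -0.09, -0.11, -0.06 and -0.07 (95 regions). Input signal was similar: the median log2 Cy3 of long-region probes was 9.74, 9.72, 9.43 and 9.46, against 9.76, 9.74, 9.47 and 9.49 in regions of 3 to 14 probes.

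**Figure D2:**
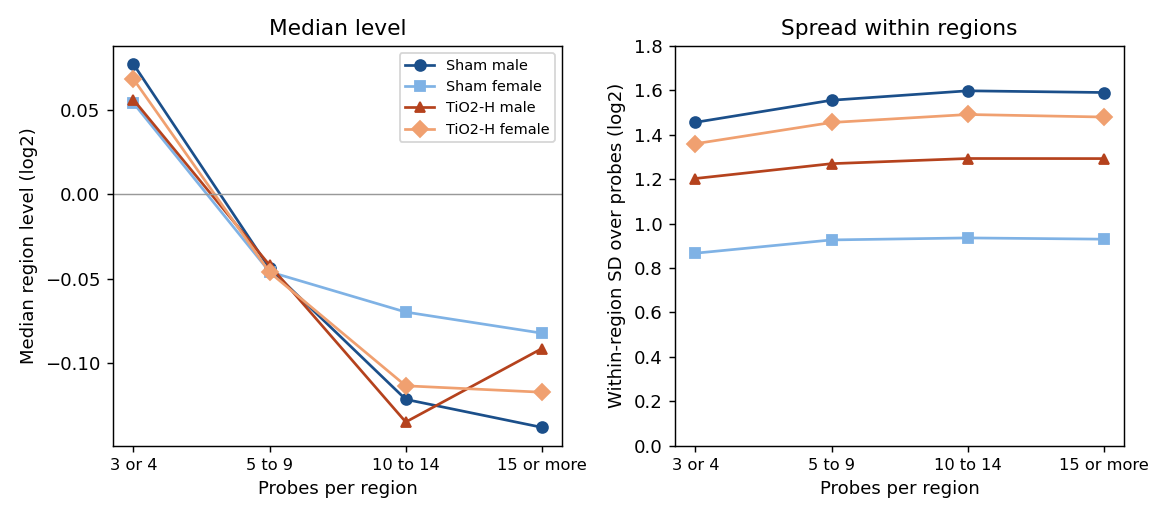
Left, median region level (log2) by number of probes per region on each of the 4 arrays; right, SD over the probes of a region (log2, pooled over regions). The median lies above 0 for regions of 3 or 4 probes and below 0 for the 3 larger classes on every array, while the SD differs more between arrays (0.93 to 1.59 in long regions) than between classes.

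Probes within a long region differed widely. The SD over the probes of a region, pooled over all long regions, was 1.59 (Sham male), 0.93 (Sham female), 1.29 (TiO2-H labelled male) and 1.48 (TiO2-H labelled female). It exceeded that of shorter regions by 0.06, 0.02, 0.04 and 0.05, with a mean of 0.04 ± 0.02 (SD, n = 4 arrays, exact permutation p = 0.125). Against regions of 10 to 14 probes the difference was -0.0063 on average. The SD differed more between arrays than between size classes.

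Several long regions changed from high to low along their length. The region within Kat6b, a histone acetyltransferase (chr14:22318578-22320622, 16 probes), had SDs of 2.14, 1.47, 1.93 and 2.35. Its 6 edge probes (3 at each end) had medians of 1.98, 1.24, 1.56 and 2.23, and its core had -0.69, -0.10, -0.91 and -1.26. The highest single probe reached 4.61, 3.72, 3.83 and 5.05. The high probes lay at 1 end of this region on all 4 arrays, as the plot of probe values along 4 regions shows.

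The opposite shape was seen at Inhbb, the beta B subunit of inhibin and activin (chr1:121316775-121319348, 18 probes). Its edges had medians of -0.25, -0.33, -0.78 and -0.32, and its core had 1.27, 1.04, 1.05 and 1.92. Core and edges did not overlap across the 4 arrays. At Scrt1, a neuronal zinc finger repressor (chr15:76352647-76354391, 15 probes, promoter-labelled), the edges had 2.08, 1.44, 1.52 and 1.82 and the core -0.04, -0.31, -0.57 and -0.14. Mapk4, an atypical MAP kinase, had edges of -1.10, -0.93, -0.98 and -0.70 and a core of 0.56, 0.66, 0.62 and 0.78. Regions were picked here for their extreme differences, so these values describe shapes and were not tested.

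**Figure D3:**
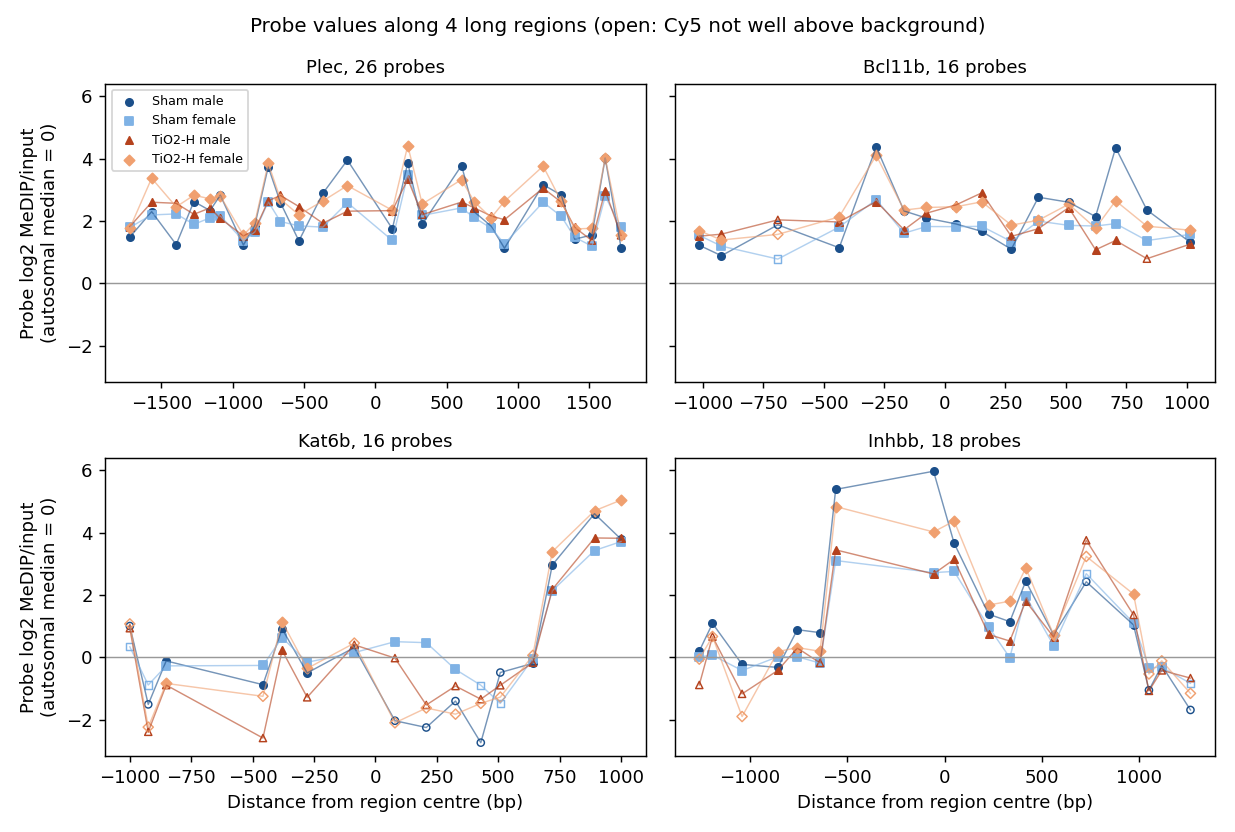
Probe levels (vertical axis, log2 of MeDIP over input) against the distance from the region centre (horizontal axis, bp) for long regions within Plec, Bcl11b and Kat6b and at Inhbb, on 4 arrays; open symbols mark probes whose Cy5 was not well above background. Plec and Bcl11b stay above 0 throughout, Kat6b is high at 1 end (core medians of -1.26 to -0.10) and Inhbb is high in its middle (core medians of 1.04 to 1.92).

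The largest spread among named regions included Pfn1, the actin-binding protein profilin (chr11:70467169-70469811, 19 probes), with SDs of 2.31, 1.45, 1.96 and 2.30. Its probes ran from -3.41 to 6.04 on the Sham male array. Tlx3, a homeobox gene of sensory and hindbrain neurons (chr11:33100508-33104401, 28 probes), had SDs of 2.53, 1.39, 1.71 and 2.12. Its highest probe reached 7.18 (Sham male) and 3.86 (Sham female). The region medians of both genes stayed between -0.77 and 0.49 on every array, so a median near 0 can hold probes far above it.

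No common difference between edges and cores was found over all long regions. The median difference was -0.03, 0.04, -0.02 and -0.10 on the 4 arrays, with a mean of -0.03 ± 0.06 (SD, n = 4 arrays, exact permutation p = 0.5). Edges lay above the core on all 4 arrays in 111 regions and below it on all 4 in 121. The sign of the mean turned after normexp (0.02), after loess (0.01) and with 20 or more probes (0.02). The outermost probe had the lowest median input, 9.02, 9.32, 8.76 and 9.06, against 9.93, 9.87, 9.65 and 9.60 for the next probe inwards. Its part in the edge values was not tested.

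The question of exposure was then put to the long regions by fold within a sex, as in the study. A probe counted as measured when both arrays had Cy3 well above background, at least 1 had Cy5 so, and the scanner's p-value for the ratio was below 0.05 on either. A region needed 3 such probes and took their median log2 fold. With 1 array per group this count has no test and no error. Cy5 passed at more long-region probes on the Sham arrays (48.8% male and 57.4% female) than on the TiO2-H arrays (22.7% and 30.4%). More measured probes could thus enter through the Sham array, where they were high. A region rose at 1.5-fold or more and fell at 0.67-fold or less, and "rose" and "fell" in this comparison mean only that.

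In the male comparison 421 long regions were measured and 11 were not. Past either limit were 252 (59.9%, all regions 61.5%): 0 rose, where 0.594% of all 5896 measured regions did, and 252 fell, where 60.9% of all regions did. The share of falls was near the background, and nothing particular to long regions is read from it. The median log2 fold was -0.67 in long regions and -0.69 in the 5475 measured shorter ones. With dim Cy5 signals raised to the lowest signal well above background, 208 of the 252 falls kept their direction and 96 were still at least 1.5-fold. That bound used the same measured probes, so it is no test of the falls. Over all probes the median level of long regions was -0.14 (Sham male) and -0.09 (TiO2-H labelled male). With Cy5 above background on both arrays, 187 of 276 measured long regions fell and 0 rose. The share of all regions under that filter is not given here. After normexp 10 long regions were past the limits and after loess 12.

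In the female comparison 427 long regions were measured and 5 were not. Past either limit were 193 (45.2%, all regions 49.8%): 54 rose (12.6%), where 17.1% of all 7182 measured regions did, and 139 fell (32.6%), where 32.7% did. The median log2 fold was -0.26 in long regions and -0.16 in shorter ones. Only 39 of the 139 falls kept their direction with dim Cy5 raised, and 8 of them were at least 1.5-fold, while all 54 rises were. The rises did not hold under other scalings, with 0 after quantile normalization, with a common spread and after normexp, 1 after loess and 2 without centring. With Cy5 above background on both arrays the direction turned: 205 of 315 measured long regions rose and 6 fell. The direction of the female comparison thus depended on which probes were counted. The share of all regions under this filter is not given here, so nothing particular to long regions is read from it. Over all autosomal probes the median absolute deviation was 0.60 on the Sham female array and 1.04 on the TiO2-H array labelled female. The part of this spread in the turn was not tested.

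With the labelled sex of both TiO2-H arrays crossed, far fewer long regions differed from the Sham male array. Against it, 5 rose and 25 fell of 424 (2.72% and 11.2% of all regions, either way 13.9%). Against the Sham female array, 0 rose and 216 fell of 426 (0.168% and 47.6%, either way 47.8%). Arrays of the same exposure differed as well: between the Sham pools 162 of 431 long regions were past a limit (37.6%, all regions 48.1%), and between the TiO2-H pools 256 of 327 (78.3%, all regions 70%). Pools of 1 exposure thus differed at 37.6% and 78.3% of long regions, and pools of the same labelled sex at 59.9% (male) and 45.2% (female).

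Both comparisons together covered 417 long regions. Of these, 76 fell in both (18.2%), where 14.4% of all 5076 regions did, and 0 rose in both, where 0.118% did. A further 36 fell in the male and rose in the female comparison (8.63%), where 15.3% of all regions did. After quantile normalization 43 long regions fell in both, 33 of them among the 76. After normexp there were 5, with 1 of them among the 76.

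**Figure D4:**
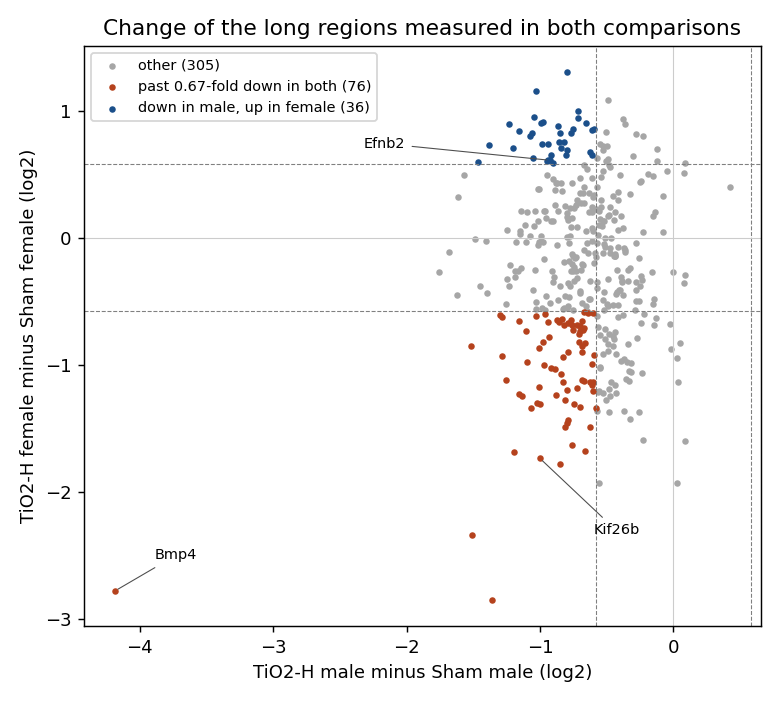
Median log2 fold of the 417 long regions measured in both comparisons, male on the horizontal and female on the vertical axis; dashed lines mark 1.5-fold and 0.67-fold. The 76 regions that fell in both lie at lower left, with Bmp4 farthest, and the 36 that fell in the male and rose in the female comparison lie at upper left.

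The deepest fall in both was at Bmp4, a secreted morphogen of the TGF-beta family (chr14:47006999-47008914, 16 probes). Its level over all 16 probes was -0.85 and -0.13 on the Sham male and female arrays, and -0.82 and -1.49 on the TiO2-H arrays labelled male and female. The level over all probes was thus lower under exposure in the female comparison only. Its folds rested on 3 and 7 measured probes, of which 2 and 6 were dim on the TiO2-H array. Only 1 measured probe had Cy5 above background on both arrays, so most probes entered through the Sham array and the folds are no test. On the main scale they were at least 4.90-fold lower in the male and at least 1.78-fold lower in the female comparison. The unbounded log2 fold, -4.19 and -2.78 there, was -0.75 and -1.22 after normexp and -1.98 and -1.90 after loess. In the limma fit below its unadjusted p was 0.0053 and its adjusted p 0.334, from 5 probes that all passed on both Sham arrays.

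A further 3 of the 5 deepest falls had no symbol: chr6:23197440-23199859, chr11:92959730-92961606 and chr2:31490750-31493615. From 3 measured probes in each comparison, the first was lower by at least 2.57-fold between the arrays labelled male and by at least 1.54-fold between those labelled female on the main scale. Of these 3 probes, 2 were dim on 1 array in each comparison. The male log2 fold of this region was -0.26 after loess. Over all 19 probes it did not fall, with levels of -0.19 and -0.23 on the Sham arrays and 0.04 and -0.17 on the TiO2-H arrays. The second was at least 1.47-fold and at least 1.66-fold lower on the main scale, and its male log2 fold was -0.08 after normexp. The last kept its direction with dim probes raised only in the male comparison, where it was at least 1.42-fold lower. At Kif26b, a kinesin-family protein (chr1:180457448-180461093, 30 probes, promoter-labelled), levels were -0.69 and -0.19 on the Sham arrays and -0.49 and -0.54 on the TiO2-H arrays. It was at least 1.02-fold lower in the male comparison, where 8 of 10 measured probes were dim, but its level over all 30 probes was not lower there. In the female comparison 15 of 17 were dim and the direction was lost. After normexp the male log2 fold was 0.00.

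A fit with limma set both TiO2-H arrays against both Sham arrays over 6960 regions, of which 425 were long, using probes whose Cy3 passed background on every array and whose Cy5 did on 2 or more. In all, 26 regions (0.374%) passed an adjusted p of 0.05, and 1 of the 425 long regions did (0.235%). At an unadjusted p under 0.05 there were 7 long regions, all lower under exposure (1.65%, all regions 4.96%). In each of the 7, every probe in the fit had Cy5 above background on both Sham arrays. Fewer of them had it on the TiO2-H array labelled male. These probes could thus enter through the Sham arrays alone, and the shared direction is no evidence of a difference. The called region lies at chr11:92959730-92961606 and has no symbol. Its levels over the 4 probes in the fit were -0.26 and 1.03 on the Sham male and female arrays, and -2.10 and -1.76 on the TiO2-H arrays labelled male and female. Both exposed arrays lay below both Sham arrays, by -2.32 ± 0.46 (SE, limma adjusted p = 0.000909). The fit gave the same SE to every long region, so this SE and p do not measure the spread of this region itself. All 4 probes had Cy5 above background on both Sham arrays, but only 1 and 2 of them on the TiO2-H arrays. They thus entered the fit through the group where they were high, and this p is no independent evidence of a difference. With Cy5 required on all arrays only 1 probe was left, too few for the region to enter.

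The level of this region over all 15 probes did not separate the groups, with -0.87 and 0.29 on the Sham arrays and -0.49 and -0.74 on the TiO2-H arrays. Its limma adjusted p was 0.0706 with the slide as a block, 0.391 without the Sham female array, 0.192 without the TiO2-H array labelled male, 0.537 after normexp and 0.516 after loess. By contrast it was 0.00189 without the Sham male array and 0.00859 without the TiO2-H array labelled female. Over all 15 probes, Cy5 was above background at 4 and 8 on the Sham arrays and at 1 and 2 on the TiO2-H arrays.

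Gene groups were described by their counts among the 264 named long regions. Genes of developmental transcription factors made up 36 of them (13.6%), against 112 of 3564 named shorter regions (3.14%). They included Sox2, Sox9, Pax6, Olig1, Olig2, Neurog2, Foxa2 and Nkx2-1, regulators of neural progenitors and of brain patterning. Their median level was -0.06, -0.10, -0.14 and 0.02 on the 4 arrays, and 12 of 36 lay below 0 on all 4 while 5 lay above. Of all 432 long regions, 143 lay below and 75 above on all 4, so nothing particular to the group is read from these counts. In the male comparison 17 of 36 fell and 0 rose (all regions 60.9% and 0.594%), with a median of -0.54. In the female comparison 11 fell and 5 rose (all regions 32.7% and 17.1%), with a median of -0.26. Over all measured regions the medians were -0.69 and -0.16.

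Levels varied within that group. Foxo3, a stress-responsive forkhead factor (chr10:41994443-41998412, 31 probes), had levels of 0.47, 0.32, 0.42 and 0.89, the highest mean of the 36. Sox9, a factor of glial and neural stem cells (chr11:112642617-112646839, 30 probes), had levels of -0.73, -0.35, -0.71 and -0.69. The Foxo3 and Sox9 levels did not overlap between the genes on any array. None of the 36 had an unadjusted limma p under 0.05.

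Imprinted genes were named in 5 long regions, and their median level of 0.35, 0.47, 0.25 and 0.63 lay above 0 on every array. Cdkn1c, a cell cycle inhibitor expressed from the maternal copy (chr7:150644899-150647431, 15 probes), had levels of 1.25, 1.01, 1.47 and 1.74. Gnas, a complex locus of the stimulatory G protein subunit, held 2 long regions. The one at chr2:174122729-174126550 (24 probes) had levels of 0.65, 1.01, 1.10 and 1.36, and the one at chr2:174152721-174156700 (20 probes) had 0.35, 0.47, 0.25 and 0.63.

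The remaining imprinted regions had levels on either side of 0. Igf2, a fetal growth factor (19 probes), had levels of -0.18, -0.15, 0.24 and -0.20, and Rasgrf1, a Ras exchange factor (18 probes), had -0.58, 0.19, 0.10 and -0.19. In the male comparison 0 of the 5 regions were past a limit (all regions 61.5%). In the female comparison 1 rose and 1 fell (all regions 17.1% and 32.7%): Cdkn1c at 0.62 (log2) and Rasgrf1 at -0.70.

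Other groups were small. Signalling ligands held 3 long regions: Bmp4 (above), Bmp2, another bone morphogenetic protein, at -0.26, -0.18, -0.18 and -0.07, and Gdf1, a TGF-beta family ligand, at 0.40, 0.32, 0.35 and 0.05. Axon guidance and adhesion genes held 5, among them the ephrins Efna3, Efna5 and Efnb2. Efna3 had levels of 0.61, 0.68, 0.24 and 0.16, and Efna5 had -0.37, -0.04, -0.28 and -0.12. Of the 5, 2 of 4 measured fell in the male comparison (all regions 60.9%), and 2 fell and 1 rose of 5 in the female comparison (all regions 32.7% and 17.1%). Ion channels held 1, Kcnk12, a two-pore potassium channel subunit, at 0.25, -0.10, 0.22 and 0.34, and clustered protocadherins held 0 of the named long regions, against 4 shorter ones.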

How the data were processed

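Data were 4 two-colour CpG island arrays on mm9 positions. Per the file headers, the authors read them with Agilent Feature Extraction 10.7.3.1, which gave linear processed intensity values and a p-value per log ratio. The deposited series table holds the log10 ratio of Cy5 over Cy3. The intensity columns were background-subtracted and dye-scaled by that software. From these, log2 ratios were computed and centred on the autosomal median, and 11 probes with an outlier flag on any array were left out there.

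Comparisons used exact sign-flip permutation tests over arrays, fold counts without a test, and limma 3.58.1 (R 4.3.3, lmFit and eBayes, Benjamini-Hochberg adjustment). The limma step was tested on simulated data: of 200 changed regions among 6960, it recovered 1 at a log2 change of 1, 164 at 2 and 200 at 3. False calls numbered 0, 4 and 5. The simulated arrays shared 1 noise variance and had no Cy5 filter. The spread of the real arrays differed (median absolute deviation 0.60 to 1.08), so recovery there may differ. Regions, gene lists and the rule for named regions were chosen with earlier results of these data known. Named were the 10 regions with most probes, the 5 highest and lowest levels, the 5 largest SDs, the 5 largest edge differences each way, called regions, the 5 deepest falls and 3 largest rises in both comparisons, and 3 per gene list. Rasgrf1, Cdkn1c, Ppp4r3b, Hmga1, Irf2bp2, Ccdc177, Mocs3, Tlnrd1 and the unnamed region at chr8:48758957-48761382 fell outside that rule and were chosen after their values were seen. Symbols were taken from the study's printed lists for 5100 probes by probe name and position, with accessions matched to RefSeq. Alternatives included quantile, loess and normexp (offset 50) normalization, other filters, gaps of 2000 bp, 20 or more probes, slide as a block, crossed sex labels and leaving out each array. The number of arrays limits the precision.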

Additional observations from a re-analysis of the deposited data

Results flagged for a closer look

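Opposite folds by labelled sex were seen at 36 long regions (8.63%, all regions 15.3%). They were past 0.67-fold down in the male and past 1.5-fold up in the female comparison, and the reverse was seen in 0. The input of both TiO2-H arrays went against their sex labels. This difference between the comparisons was not tested, since each group is 1 array. After quantile normalization, common spread, normexp or loess 0 long regions had such opposite calls, and without centring 2 had. Of the named regions, Efnb2, an ephrin ligand of axon guidance, had log2 folds of -0.93 for males and 0.61 for females. An unnamed region of 15 probes on chromosome 12 (chr12:109416533-109418501) had -1.38 and 0.73. The unnamed region of 15 probes on chromosome 18 with the core highest above its edges had -0.71 and 1.00.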

How the results depend on the processing

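No paired analysis was possible because the labels carry no replicate numbers, other than pairing Sham and TiO2-H arrays by slide, which limma fitted as a block (adjusted p = 0.0706 for the called region). The level difference between long and shorter regions kept its sign under the other alternatives but was 0.0013 after normexp and 0.0027 against regions of 10 to 14 probes; it was -0.03 after loess, -0.05 over the 5 probes nearest the centre and -0.17 against regions of 3 or 4 probes. The difference in SD turned to -0.0063 against regions of 10 to 14 probes, and was 0.015 after normexp, 0.013 over the 5 centre probes, 0.023 between neighbouring probes, 0.10 against regions of 3 or 4 probes and 0.15 as the median SD over regions. The difference of edge and core turned to 0.017 after normexp, 0.0085 after loess and 0.016 with 20 or more probes. Leaving out each array in turn gave -0.09 to -0.07 for the level, 0.04 to 0.05 for the SD and -0.05 to -0.0022 for edge and core. Why these values turned was not tested. The count of long regions past a fold limit in the male comparison was 165 after quantile normalization, 10 after normexp, 12 after loess, 61 with 20 or more probes (111 regions measured) and 30 with crossed sex labels. In the female comparison it was 105 after quantile normalization, 101 after loess and 53 with 20 or more probes (113 regions measured). Fewer regions were available with 20 or more probes, and for the others the cause was not tested. Shares of all regions past a limit are given above only for the main scale and the crossed labels. Nothing particular to long regions is therefore read from these counts. Calls by limma among long regions, all of them falls, numbered 5 after quantile normalization and 4 with a common spread. Over all 6960 regions, 156 and 130 were called there. On single probes, 3 of 3494 in long regions were called, all of them falls, against 37 of all 39861. Calls among long regions numbered 0 with the slide as a block, after normexp, after loess and with Cy5 above background on all arrays. With 20 or more probes they also numbered 0. In the same order, 5, 28, 12, 1 and 0 long regions had an unadjusted limma p under 0.05. Over all regions 178, 693, 427, 27 and 345 had it, of 2663 with Cy5 above background on all arrays and of 6960 otherwise. Leaving out each array in turn gave 0 to 1 calls: 0 without the Sham female array or the TiO2-H array labelled male. The Cy5 signal, well above background at 22.7% and 30.4% of long-region probes on both TiO2-H arrays, limits how far any fall can be sized.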

Other observations

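A pair of long regions without a gene symbol also stood in the upper tail. The region at chr12:109416533-109418501 (15 probes) had levels of 2.03 and 0.78 on the Sham arrays (male, female) and 0.62 and 1.08 on the TiO2-H arrays (labelled male, female), and its probes ran from -2.75 to 4.00 on the Sham male array. The region at chr8:48758957-48761382 (16 probes) had a mean level of 1.04 over the 4 arrays. Among the named regions of that tail, Ccdc177 (22 probes) had a mean level of 1.50, Mocs3, a sulfur carrier enzyme of molybdenum cofactor synthesis (16 probes), had 1.48, and Tlnrd1, a talin rod domain protein (19 probes), had 1.07.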
